A study of Mus musculus with 3 samples.

Results

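The regions described here are accessible promoter regions of long noncoding RNA (lncRNA) genes in dopaminergic neurons (DNs) of the mouse midbrain. They were taken from 1 list of 55326 accessible peaks, each 500 bp wide, on the mm10 genome build. A peak was included when its centre lay within 1 kb of a transcript start of a gene that GENCODE M21 types as lincRNA or antisense, and more than 5 kb from every start of a protein_coding gene. Of the 54570 peaks on autosomes, 777 (1.42%) met this rule. A further 1613 peaks lay within 1 kb of a lncRNA start but within 5 kb of a protein_coding start, and these were left out because the gene they belong to is ambiguous.

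The list came from single-nucleus ATAC-seq of the ventral tegmental area (VTA), in 2 libraries of wild-type male C57Bl/6Nl mice aged 7 weeks (replicate 1) and 9 weeks (replicate 2). How many animals each library holds is not stated. In this assay a transposase inserts adaptors into open chromatin of isolated nuclei, and a barcode records the nucleus. Both libraries were pooled in the list, which gives positions but no height, count or score. The spread between the replicates is therefore unknown, no p-value is given, and a start without a peak is only one where no peak was called, since the list holds no depth per peak. Shares carry 95% exact binomial intervals, which cover counting error only, since peaks and genes of 1 list are not replicates. The mouse embryonic stem cell library of the same series was not analysed here.

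All 11 markers of DNs examined had peaks, from 3 at *Slc6a3* and *Pitx3* to 31 at *Lmx1b*, and each had 1 within 1 kb of a start. Of 14 genes that mark other cells, 6 had a peak and 3 had 1 within 1 kb of a start. Those with a peak at a start were the oligodendrocyte gene *Mbp*, with 6 peaks along 110 kb, the astrocyte gene *Gfap*, with 2, and *Slc32a1* of inhibitory neurons, with 1. *Cx3cr1* of microglia had 9 peaks along its 168 kb and *Slc17a7* and *Gad1* had 1 each, none of them at a start. *Olig2*, *Sox10*, *Mog*, *Aqp4*, *Aif1*, *Gad2*, *Nanog* and *Pou5f1* had none. The authors had identified the DN cluster by its accessibility at *Th* and backed this choice with other DN markers. Peaks at those genes are therefore no independent check.

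LncRNAs are transcribed by RNA polymerase II and are often capped, spliced and polyadenylated, but encode no known protein. GENCODE used the term lincRNA for those between protein_coding genes and antisense for those that overlap a protein_coding gene on the other strand. Some act in the nucleus, as *Malat1* and *Neat1* do. Others silence imprinted neighbours in cis, as *Kcnq1ot1* and *Airn* do, and several are the precursors from which miRNAs are cut. Promoters of mammalian genes fall into a CpG-rich class, which is often open in many cell types, and a CpG-poor class, which is more often restricted to particular tissues.

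The sequences that follow are examples of starts with and without core promoter motifs and the CRE. They do not stand for the frequency of these motifs, since TATAAA and CCAAT were about as frequent in lncRNA promoter peaks as in all peaks, and 5 of 85 lncRNA genes with TATAAA at a start, and with a start more than 6 kb from every protein_coding start, had a peak (5.88%, interval 1.94% to 13.2%), against 10.9% of those without. Each window runs from 100 bp before to 30 bp after a start that lies inside an accessible peak (*Neat1* excepted, whose peak lies upstream), 5′ to 3′ on the strand of the gene, read from GRCm38, whose sequence mm10 shares. Capitals mark matches on either strand to GGGCGG (the GC box, bound by Sp1 and related factors), CCAAT (bound by NF-Y), TATAAA (the TATA box) and TGACGTCA (the cAMP response element or CRE, bound by Creb1 and related factors). The *Meg3* start (+ strand, chr12:109540901-109541031) had a CRE and a TATA box, and the *Neat1* start (- strand, chr19:5845448-5845578) had a TATA box. The start of *Mir9-3hg* (+ strand, chr7:79499926-79500056) had a CRE between GC boxes, and *Gm3764* (+ strand, chr3:88214385-88214515), the host of Mir9-1, had a CRE and a CCAAT box. *Kcnq1ot1* (- strand, chr7:143296519-143296649) and *1700020I14Rik* (+ strand, chr2:119594197-119594327) had CCAAT boxes, the latter with GC boxes as well, while the windows of *Malat1* (- strand, chr19:5802641-5802771) and *9030622O22Rik* (- strand, chr2:148040173-148040303) matched none of the 4.
Meg3: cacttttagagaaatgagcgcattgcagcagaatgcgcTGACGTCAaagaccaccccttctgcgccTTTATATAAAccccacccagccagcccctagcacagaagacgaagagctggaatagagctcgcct
Neat1: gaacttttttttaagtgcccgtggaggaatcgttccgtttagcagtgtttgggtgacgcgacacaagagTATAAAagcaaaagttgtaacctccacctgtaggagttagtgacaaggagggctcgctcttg
Mir9-3hg: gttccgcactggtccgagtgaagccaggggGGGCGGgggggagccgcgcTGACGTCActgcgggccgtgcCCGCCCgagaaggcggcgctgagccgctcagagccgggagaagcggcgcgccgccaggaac
Gm3764: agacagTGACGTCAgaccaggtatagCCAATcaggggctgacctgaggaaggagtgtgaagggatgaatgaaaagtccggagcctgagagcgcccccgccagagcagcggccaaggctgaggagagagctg
Kcnq1ot1: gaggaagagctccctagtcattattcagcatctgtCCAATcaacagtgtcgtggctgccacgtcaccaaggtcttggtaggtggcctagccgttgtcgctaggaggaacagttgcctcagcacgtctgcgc
1700020I14Rik: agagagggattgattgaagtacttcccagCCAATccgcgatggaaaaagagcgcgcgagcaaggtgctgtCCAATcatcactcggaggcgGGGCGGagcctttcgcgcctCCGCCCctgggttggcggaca
Malat1: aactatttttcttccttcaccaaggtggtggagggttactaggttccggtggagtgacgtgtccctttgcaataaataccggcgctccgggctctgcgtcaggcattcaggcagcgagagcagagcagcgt
9030622O22Rik: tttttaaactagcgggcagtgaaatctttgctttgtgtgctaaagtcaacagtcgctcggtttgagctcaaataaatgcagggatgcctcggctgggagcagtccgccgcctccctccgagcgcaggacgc

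Accessibility at lncRNA starts was asked first per gene. A gene was called eligible when at least 1 of its starts lay more than 6 kb from every protein_coding start, so that any peak within 1 kb of that start would meet the rule. Of 5796 eligible lncRNA genes, 626 had a peak within 1 kb of such a start (10.8%, interval 10.0% to 11.6%), and peaks at their other starts were not counted. The share was 10.3% for lincRNA genes (462 of 4480) and 12.5% for antisense genes (164 of 1316), whose intervals of 9.44% to 11.2% and 10.7% to 14.4% overlapped. Of 20807 protein_coding genes, 12265 (58.9%) had a peak within 1 kb of any start. No limit on the distance to other genes was set for them, so that the shares are not measured alike. Most eligible lncRNA genes were thus without a called peak at their eligible starts in DNs.

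Peak centres were nonetheless concentrated at lncRNA starts. Around 3913 lincRNA starts more than 15 kb from protein_coding starts, there were 9.81 peak centres per 100 starts per kb in the 500 bp upstream and 5.11 in the 500 bp downstream. The level 5 to 10 kb away from the same starts was 1.51. Around 828 antisense starts the level was 9.90 in the 500 bp upstream, 9.42 in the 500 bp downstream and 2.45 at 5 to 10 kb. The lincRNA profile was therefore higher upstream than downstream, whereas the antisense profile was about even. For 11209 protein_coding starts the corresponding levels were 62.0, 40.5 and 1.90. The level 5 to 10 kb away is the density that the surroundings of these starts carry.

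**Figure D1:**
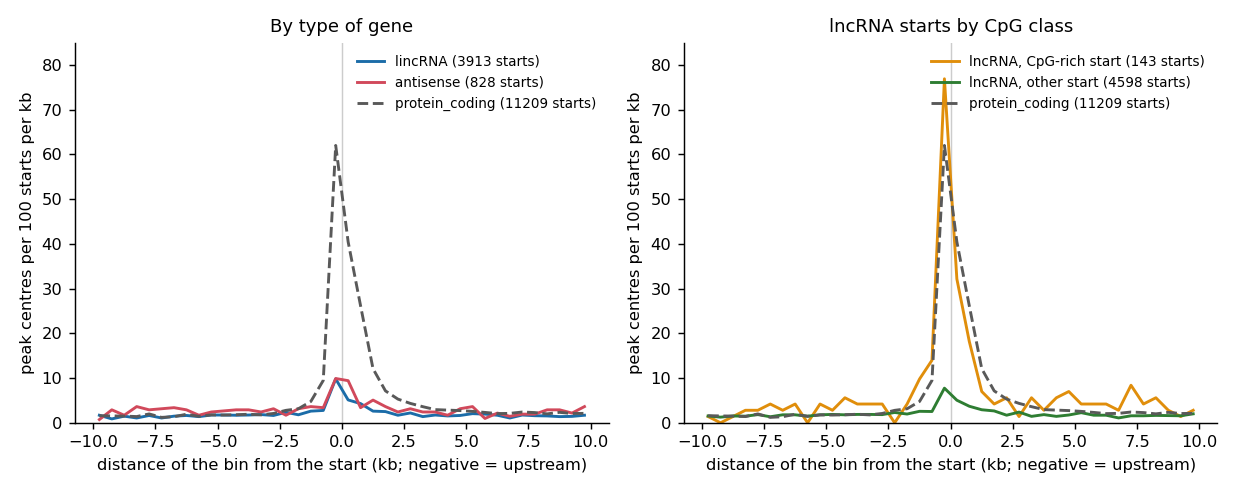
Density of peak centres (per 100 starts per kb, in bins of 500 bp) by distance from transcript starts in kb, by type of gene (left) and for lncRNA starts split by CpG class (right), with protein_coding starts as the dashed line in both. The lincRNA and antisense curves peak near 10 just upstream of the start, and the 143 CpG-rich lncRNA starts reach 76.9 there, against 7.74 for the other 4598.

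The share of accessible genes followed the CpG content of the start. A start was called CpG-rich when the 500 bp around it had a GC content of at least 50% and an observed to expected ratio of CpG of at least 0.6. Only 212 of the 5796 eligible lncRNA genes had such a start (3.66%), compared with 12048 of 20807 protein_coding genes (57.9%). Of the 212, 111 had a peak (52.4%, interval 45.4% to 59.2%), whereas 515 of the 5584 others did (9.22%, interval 8.48% to 10.0%). Protein_coding genes showed 88.2% with and 18.7% without a CpG-rich start. A CpG-rich start was held by 17.7% of lncRNA genes with a peak and by 1.95% of those without.

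Because a gene with several starts has more places at which a peak can lie, the comparison was repeated for genes with 1 start. There, 59 of 127 lncRNA genes with a CpG-rich start had a peak (46.5%, interval 37.6% to 55.5%), compared with 345 of 4414 others (7.82%, interval 7.04% to 8.65%). Protein_coding genes with 1 start gave 72.9% (908 of 1246) and 11.1% (350 of 3160). Protein_coding and lncRNA genes thus stood at 58.9% and 10.8% over all genes. Among genes with 1 start they stood at 72.9% and 46.5% where it was CpG-rich, and at 11.1% and 7.82% where it was not. The protein_coding shares count every start, also those near other genes.

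**Figure D2:**
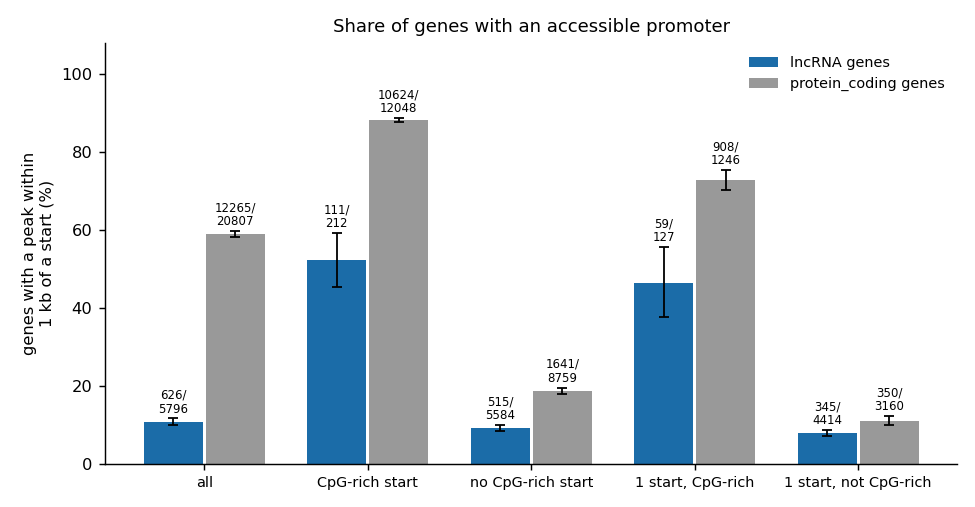
Percentage of genes with a peak within 1 kb of a start, for eligible lncRNA genes (blue) and protein_coding genes (grey), over all genes and by the CpG class and number of starts. For lncRNA genes only starts more than 6 kb from every protein_coding start count, and for protein_coding genes every start does. Error bars are 95% exact binomial intervals and the numbers are genes with a peak over all genes. For genes with a CpG-rich start the share was 52.4% for lncRNA and 88.2% for protein_coding genes, and for those without it was 9.22% and 18.7%.

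Other features of the genes moved with accessibility. LncRNA genes with 4 or more starts had a peak in 26.6% of cases (58 of 218), those with 2 or 3 in 15.8% (164 of 1037) and those with 1 in 8.90% (404 of 4541). All starts of a gene were counted here, but peaks only at its starts more than 6 kb from every protein_coding start. Genes with a descriptive name reached 21.7% (45 of 207), whereas those known by a serial number reached 10.4% (581 of 5589). The share was 13.3% for genes with a transcript of GENCODE support level 1, the best supported class, and 8.83% for level 5. Where repeats made up most of the sequence around every start, 11 of 656 genes had a peak (1.68%, interval 0.840% to 2.98%), and 12% of the other 5140 did. Reads in repeats can map to several places, and the part of this in the share was not tested. The number of exons made little difference, at 13.8% for 1 exon, 10.4% for 2 and 10.8% for 3 or more. With distance from protein_coding starts the share went from 13.5% at 6 to 20 kb to 7.55% beyond 100 kb.

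The 777 peaks belonged to 650 genes by the 1 kb rule, 473 lincRNA and 177 antisense genes. Of these, 535 had 1 such peak, 93 had 2 and 22 had between 3 and 7. By nearest start, 569 peaks (73.2%) lay at lincRNA genes and 208 (26.8%) at antisense genes. The peak covered a lncRNA start in 403 cases (51.9%, interval 48.3% to 55.4%), and the median distance from centre to nearest start was 225 bp with quartiles of 62 and 555 bp. Centres lay upstream of the start in 447 peaks and downstream in 328. In 22 peaks, starts of lncRNA genes on both strands lay within 1 kb of the centre.

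The neighbourhoods of lincRNA and antisense peaks differed as their definition requires. Of the antisense peaks, 132 of 208 lay inside the body of a protein_coding gene (63.5%), always on the strand opposite to it, compared with 36 of 569 lincRNA peaks (6.33%). The nearest protein_coding start was a median of 35.7 kb away (quartiles 15.1 and 84.2 kb), and 168 of the 777 peaks were more than 100 kb from any. No other peak lay within 10 kb of 35.9% of the lncRNA promoter peaks (interval 32.5% to 39.4%), a share between 24.1% for peaks within 1 kb of protein_coding starts and 46.2% for peaks more than 5 kb from every lncRNA and protein_coding start. The share over all autosomal peaks was 32.7%, inside the lncRNA interval. At the other end, 14 other peaks lay within 10 kb of a peak at *Gm26583* and 13 within 10 kb of each of 3 peaks at *Gm26953*, which overlaps *Miat* on the other strand. These genes were chosen after their values were seen.

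The base composition of lncRNA promoter peaks lay between those of protein_coding promoter peaks and of peaks far from starts. Their median GC content was 52.2% (quartiles 48.2% and 56.6%), against 61.0% for the 19061 peaks within 1 kb of a protein_coding start and 48.0% for the 24485 peaks more than 5 kb from every lncRNA and protein_coding start. The median over all autosomal peaks was 52%, close to that of the lncRNA promoter peaks. The median ratio of observed to expected CpG was 0.373, against 0.716 and 0.231 respectively. By the thresholds given above, 148 of the 777 were CpG-rich (19%, interval 16.3% to 22%), compared with 62.1% of the protein_coding promoter peaks and 2.51% of the far peaks. The share over all autosomal peaks, 24.5%, lay above the lncRNA interval. GC content ranged from 35.4% at *Rapgef4os1* to 79.2% at *Gm8066*, both named after their values were seen.

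The CpG-rich class was unevenly spread among the lncRNA promoter peaks. It made up 21.6% of lincRNA peaks (123 of 569, interval 18.3% to 25.2%) and 12% of antisense peaks (25 of 208, interval 7.93% to 17.2%). Peaks that covered a start were CpG-rich in 24.1% of cases (97 of 403, interval 20.0% to 28.5%), and the others in 13.6% (51 of 374, interval 10.3% to 17.5%). These intervals do not overlap for either split. The CpG-rich peaks had a median GC content of 61.2% and a median CpG ratio of 0.778, below the 65.2% and 0.830 of CpG-rich protein_coding promoter peaks. The other 629 had 50.8% and 0.323, against 53.8% and 0.371 of the protein_coding promoter peaks that were not CpG-rich. The annotation of a lncRNA can miss a protein_coding transcript, and RefSeq placed a protein-coding start within 5 kb of 42 of the 777 peaks. Without these, 136 of 735 were CpG-rich (18.5%) and the median GC content was again 52.2%.

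**Figure D3:**
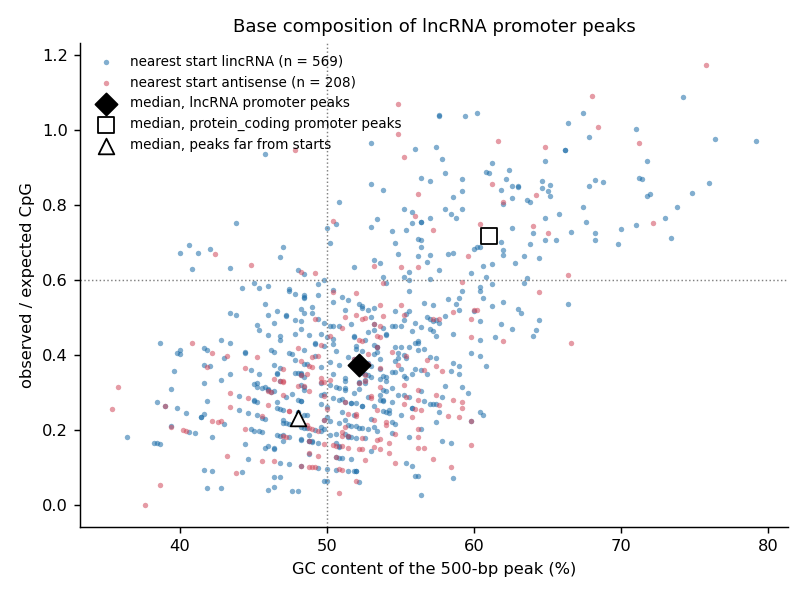
GC content (%) against the ratio of observed to expected CpG for the 777 lncRNA promoter peaks, coloured by the type of the nearest start, with the medians of 3 sets of peaks as large symbols and the thresholds of the CpG-rich class as dotted lines. The median of the lncRNA promoter peaks (52.2% and 0.373) lies between those of peaks far from starts (48.0% and 0.231) and of protein_coding promoter peaks (61.0% and 0.716), and 148 peaks lie in the upper right field.

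Short motifs were searched on both strands of each 500-bp peak, and a match is a description of the letters, not evidence of binding. For the core promoter motifs, GGGCGG (GC box) was in 249 of the 777 peaks (32%), beside 32% of all autosomal peaks. CCAAT was in 329 (42.3%), beside 45.2% of all peaks, and TATAAA in 132 (17%), beside 17.1%. The interval of each of these shares included that of all peaks. By CpG class, the intervals of the GC box and TATAAA were apart. Those of CCAAT overlapped, at 37.8% of CpG-rich and 43.4% of other lncRNA promoter peaks. The GC box was in 78.4% of CpG-rich lncRNA promoter peaks and in 21.1% of the others, compared with 83.8% and 32.4% of the same classes of protein_coding promoter peaks. TATAAA was in 9.46% and 18.8% of the lncRNA classes.

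Of the motifs bound by ubiquitous activators, CGCATGCG (Nrf1) was in 8 lncRNA promoter peaks (1.03%), beside 1.32% of all peaks, and AAGATGGCG (Yy1) in 4 (0.515%, interval 0.140% to 1.31%), beside 1.32%. Yy1 had the smallest ratio to all peaks of the 15 motifs, 0.390. Of protein_coding promoter peaks 3.05% had a Yy1 match, and 4.49% of those that were CpG-rich, against 1.35% of CpG-rich lncRNA promoter peaks (2 of 148, interval 0.164% to 4.80%, which includes the protein_coding share). Of the peaks with a Yy1 match, the 2 centred nearest to a start were that of *1700020I14Rik*, at 17 bp upstream, and that of an entry that carries the symbol *Zfp469* but is typed as lincRNA, at 49 bp downstream.

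The CRE had the largest ratio to all peaks, 2.05. TGACGTCA was in 24 lncRNA promoter peaks (3.09%, interval 1.99% to 4.56%), beside 1.5% of all peaks, 2.80% of protein_coding promoter peaks and 0.711% of far peaks. Of CpG-rich lncRNA promoter peaks 9.46% had it (14 of 148, interval 5.27% to 15.4%), compared with 3.64% of CpG-rich protein_coding promoter peaks. Among peaks that were not CpG-rich, the shares were 1.59% (10 of 629, interval 0.765% to 2.90%) and 1.43%. The intervals of lncRNA and protein_coding promoters were thus apart in the CpG-rich class, where the lncRNA share rests on 14 peaks, and overlapped in the other. In 17 of the 24 peaks the CRE lay at most 300 bp upstream of the start. The 2 peaks with a CRE that were centred nearest to a start were those of *AC132452.1*, centred on the start, and *Gm36445*, 14 bp upstream.

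Several genes with a CRE hold a miRNA, a grouping made after these genes were seen. Of the 54 lncRNA promoter peaks at such genes 8 had a CRE (14.8%, interval 6.62% to 27.1%), and 16 of the other 723 (2.21%, interval 1.27% to 3.57%). The peaks at miRNA genes were also CpG-rich more often, at 37.0% (20 of 54) against 17.7% (128 of 723). The 8 peaks lay at 8 genes, *Meg3*, *Mir9-3hg*, *Gm3764*, *Mir124-2hg*, *Mir670hg*, *Gm3294*, *6720427I07Rik* and *Gm20732*, the last of which holds Mir30d. The CRE of *Mir670hg* (- strand, chr2:94265385-94265416) and that of *Gm3294* (+ strand, chr6:28981439-28981470) lay in 32-bp windows that were identical at 29 positions. The positions of the CRE are among the 29 and match by the choice of the windows. *Mir670hg* and *Gm3294* hold Mir129-2 and Mir129-1. Windows of 12 bp on each side of the CRE, 5′ to 3′ on the strand of the gene and with the CRE in capitals, are given for them and for *Mir124-2hg* (+ strand, chr3:17793828-17793859), *6720427I07Rik* (- strand, chr13:48545885-48545916), *Gm20732* (- strand, chr15:68363266-68363297) and *Pvt1* (+ strand, chr15:62037976-62038007).
Mir670hg: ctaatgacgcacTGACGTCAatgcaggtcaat
Gm3294: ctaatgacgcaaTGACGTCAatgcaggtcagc
Mir124-2hg: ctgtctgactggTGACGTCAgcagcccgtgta
6720427I07Rik: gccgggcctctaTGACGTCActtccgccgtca
Gm20732: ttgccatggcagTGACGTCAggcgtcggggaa
Pvt1: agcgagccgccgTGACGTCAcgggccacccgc

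Motifs of the factors known from midbrain and other neurons were closer to the level of all peaks. TGTTTAC, the forkhead motif bound by Foxa1 and Foxa2, was in 69 lncRNA promoter peaks (8.88%), beside 7.24% of all peaks, and AAAGGTCA (Nr4a factors) in 42 (5.41%), beside 4.01%. TAATCC (Otx and Pitx) was in 13.9%, beside 13.6%, and TAATTA (homeobox) in 7.59%, beside 7.28%. CAGATGG (the Neurod E-box) was in 111 (14.3%), beside 11.6%, and CAGCTG, another E-box, in 281 (36.2%), beside 30.9%. TGANTCA (AP-1, the Fos and Jun motif) was in 13.5%, beside 12.3%, CTATTTATA (Mef2) in 6 (0.772%), beside 0.53%, and the CTCF consensus in 46 (5.92%), beside 5.28%. The lncRNA interval lay above the share of all peaks for the Neurod and CAGCTG E-boxes, and included it for the other motifs of this group. All of these were more frequent in lncRNA than in protein_coding promoter peaks, with intervals that overlapped for Mef2 alone, but protein_coding promoter peaks are more often CpG-rich. Among peaks that were not CpG-rich, the intervals were apart for the forkhead, Nr4a, Neurod, CAGCTG and CTCF motifs and overlapped for the Otx and Pitx, homeobox, AP-1 and Mef2 motifs. Among CpG-rich peaks they were apart for CTCF alone, and the forkhead share was lower in lncRNA (2.03%) than in protein_coding promoter peaks (2.96%), with overlapping intervals. Peaks far from starts had like shares, at 9.86% for the forkhead, 5.89% for the Nr4a, 14.1% for the Neurod and 7.51% for the CTCF motif. For no motif of this group did the lncRNA interval lie above that of far peaks, and for the homeobox motif, at 10.2% of far peaks, it lay below. Over both classes of protein_coding promoter peaks the forkhead share was 3.99%, the Nr4a share 1.65% and the CTCF share 1.75%. Within the lncRNA promoter peaks the forkhead motif was in 10.5% of those not CpG-rich (66 of 629) and in 2.03% of the CpG-rich ones (3 of 148).

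**Figure D4:**
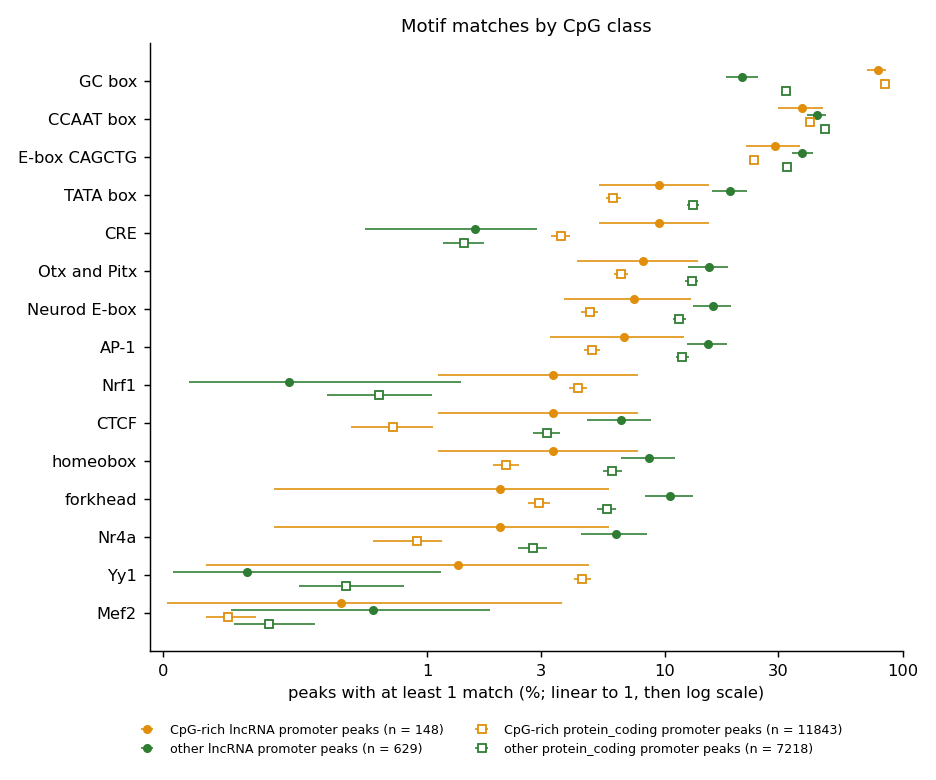
Percentage of peaks with at least 1 match to each motif (axis linear up to 1%, then logarithmic) for lncRNA promoter peaks (filled circles) and protein_coding promoter peaks (open squares), split into CpG-rich (orange) and other peaks (green), with 95% exact binomial intervals. CpG-rich lncRNA promoter peaks stand above CpG-rich protein_coding promoter peaks for the CRE (9.46% against 3.64%) and CTCF (3.38% against 0.870%), and for Yy1 the intervals overlap (1.35% against 4.49%).

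At imprinted loci, *Meg3* and *Mirg* had 7 and 5 promoter peaks at 11 annotated starts each. Both are maternally expressed RNAs of the *Dlk1* and *Dio3* cluster on chromosome 12, where *Meg3* is an abundant nuclear RNA of neurons and *Mirg* holds a long array of miRNAs. The peak over the first *Meg3* start (chr12:109540650-109541149) had a GC content of 52.8% and a CpG ratio of 0.520, just outside the CpG-rich class, and held the CRE and TATA box printed above. None of the 12 peaks at these genes was CpG-rich, and their CpG ratios ran from 0.0753 to 0.533. *Meg3* held 16 peak centres along its 30.7 kb in all. *Kcnq1ot1*, the paternally expressed antisense RNA that silences its neighbours in cis, had 1 peak centred 80 bp upstream of its start (chr7:143296379-143296878), at a CpG ratio of 0.481. *Airn*, which silences *Igf2r* on the paternal copy, had 1 centred 7 bp upstream of a start (chr17:12741117-12741616) and a CpG-rich one 866 bp downstream, at a ratio of 0.807. *H19*, the maternally expressed RNA beside *Igf2*, had no peak within 1 kb of any of its 7 starts.

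Outside imprinted loci, *Malat1*, *Neat1*, *Miat*, *Pvt1* and *Lncpint* had from 1 to 7 promoter peaks each. *Malat1*, which lies in nuclear speckles, had a peak over a start (chr19:5802399-5802898) with a GC content of only 40.6%, and a CpG-rich one of 65.2% centred 960 bp upstream. *Neat1*, the scaffold of paraspeckles, had 1 CpG-rich peak centred 503 bp upstream (chr19:5845731-5846230), so that the start with the TATA box lay outside it. The same peak counted for *Frmd8os*, which starts on the other strand, and held a CRE. *Miat*, a nuclear RNA of neurons, had a CpG-rich peak over a start (chr5:112228757-112229256) and another at 339 bp downstream, and held 12 peak centres along 16.2 kb. *Pvt1*, the RNA next to *Myc*, had a CpG-rich peak with a CRE over its first start (chr15:62037754-62038253) and another, with a ratio of 0.201, over a start farther along (chr15:62098711-62099210). *Lncpint*, a p53-induced RNA, had 7 peaks at its 14 starts, of which 4 were CpG-rich.

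**Figure D5:**
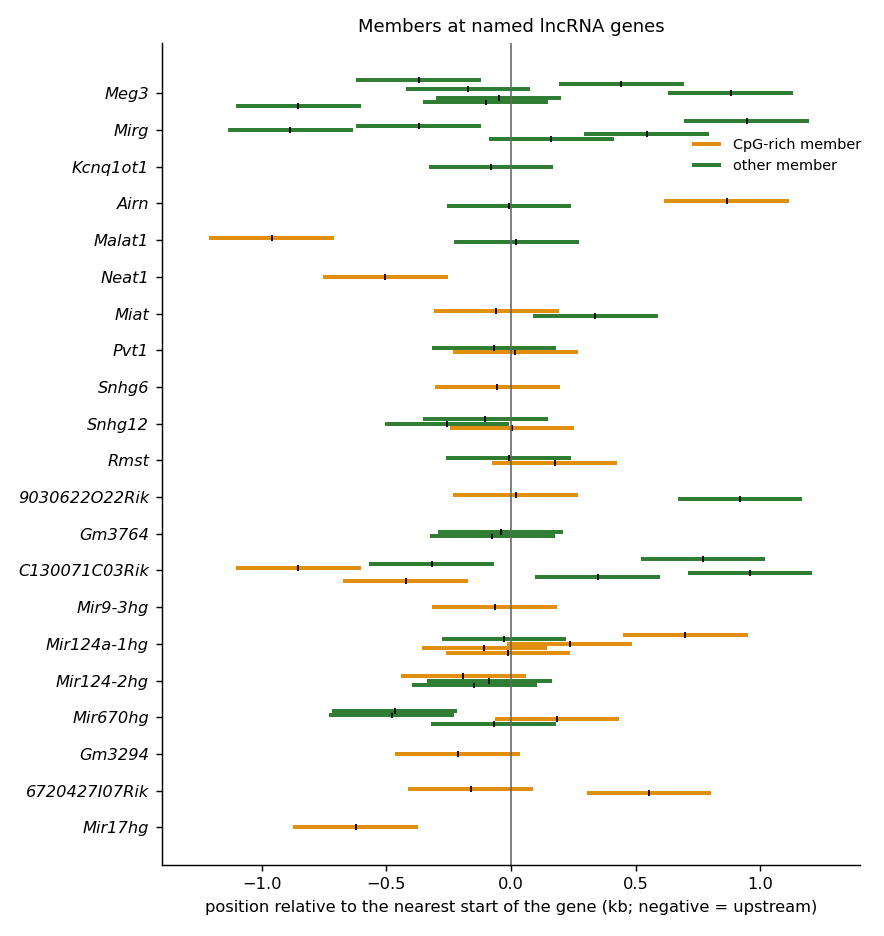
Position of each 500-bp lncRNA promoter peak relative to the nearest start of the gene (kb, negative upstream) for named lncRNA genes, with CpG-rich peaks in orange, others in green and the centre as a black tick; peaks of a gene with several starts are drawn against different starts, so that lines may overlap. The *Meg3* and *Mirg* peaks are all green, the CpG-rich *Neat1* peak lies 503 bp upstream, and the *Mir9-3hg* and *Snhg6* peaks lie over the start.

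Genes that hold a miRNA had a promoter peak more often than other lncRNA genes. Of 65 eligible lncRNA genes with a miRNA gene in their body 25 had a peak (38.5%, interval 26.7% to 51.4%), compared with 597 of 5697 genes that hold neither a miRNA nor a snoRNA (10.5%, interval 9.70% to 11.3%). A CpG-rich start was held by 17 of the 65 (26.2%), and 14 of these 17 had a peak (82.4%, interval 56.6% to 96.2%). Of the 48 without a CpG-rich start 11 had one (22.9%, interval 12% to 37.3%), above the 9.22% of all lncRNA genes without a CpG-rich start. The genes with a miRNA were not split by number of starts, with which the share of all eligible lncRNA genes rose. These 25 and *Gm37233*, which had no eligible start, made 26 genes with lncRNA promoter peaks, whose bodies held 54 miRNA genes. RefSeq gave mature sequences for 42 of the 54. Some of the 25 genes hold only a miRNA entry with a serial number, for which RefSeq gave none. These are *9330111N05Rik*, *A730043L09Rik*, *A930003A15Rik*, *Gm20754*, *Gm21814* and *Gm36283*.

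The miRNAs of these genes include several that are known from neurons, and they are printed with the seed (bases 2 to 8), which pairs with target RNAs, in capitals. The genes of all 3 miR-9 loci had promoter peaks and give the same mature miR-9-5p, with the seed CUUUGGU. The hosts of Mir129-1 and Mir129-2 give the same miR-129-5p, with the seed UUUUUGC. The let-7 cluster in *6720427I07Rik* gives 3 miRNAs that share the seed GAGGUAG. The *Mir17hg* cluster holds miR-17-5p and miR-20a-5p, which share the seed AAAGUGC. Others are miR-134-5p of *Mirg*, miR-135a-5p of *Rmst* and miR-125b-5p of *Gm49317*.
miR-9-5p: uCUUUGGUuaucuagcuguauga
miR-129-5p: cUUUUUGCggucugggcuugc
let-7a-5p: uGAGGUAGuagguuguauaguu
let-7d-5p: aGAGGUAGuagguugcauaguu
let-7f-5p: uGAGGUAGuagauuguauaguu
miR-17-5p: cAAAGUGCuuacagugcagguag
miR-20a-5p: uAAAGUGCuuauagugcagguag
miR-134-5p: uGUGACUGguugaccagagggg
miR-135a-5p: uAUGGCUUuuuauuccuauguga
miR-125b-5p: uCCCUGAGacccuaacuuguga

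miR-9 acts in neural progenitors and neurons. Of its loci, *C130071C03Rik* (Mir9-2) had 6 promoter peaks, *Gm3764* (Mir9-1) had 2 and *Mir9-3hg* had 1. None of the 6 at *C130071C03Rik* covered one of its 4 starts. The nearest lay 318 bp upstream of a start (chr13:83731998-83732497), 2 of the 6 were CpG-rich, and between 6 and 9 other peaks lay within 10 kb of each. The single *Mir9-3hg* peak (chr7:79499711-79500210) covered the start and had a GC content of 73.0%. Peak centres lay 1198, 784 and 445 bp from the hairpins of Mir9-1, Mir9-2 and Mir9-3.

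For miR-124, one of the most abundant miRNAs of neurons, *Mir124a-1hg* had 5 promoter peaks at its 4 starts, of which 4 were CpG-rich. The first start lay under a peak (chr14:64587070-64587569) with a GC content of 67.6%. *Mir124-2hg* had 3, of which 1 was CpG-rich (chr3:17794455-17794954), and the CRE lay in another (chr3:17793584-17794083). The hairpin of the remaining copy, Mir124a-3, is not held by a lncRNA gene in the annotation, but a CpG-rich lncRNA promoter peak of *Gm27032* (chr2:180893811-180894310), a gene that starts at this hairpin, was centred 12 bp from it. This gene was chosen after its values were seen. Between 7 and 14 peak centres lay within 10 kb of each of the 3 hairpins.

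The hosts of other miRNAs mostly had 1 or 2 promoter peaks. *6720427I07Rik* (let-7a-1, let-7d and let-7f-1) had 2 CpG-rich peaks with GC contents of 73.4% and 71.0%. *E130102H24Rik* (Mir101a) had 1 CpG-rich peak of 74.2% over a start and another, of 49.8%, upstream. *Mir17hg* had 1 CpG-rich peak centred 623 bp upstream of its start (chr14:115042006-115042505), and *AL805899.1* (Mir31) had 1 of 76.4% over its start. *Gm20732* (Mir30d), *Gm3294* (Mir129-1), *2900076A07Rik* (Mir1839), *Snhg20* (Mir6516) and *9330111N05Rik* each had 1 CpG-rich peak over a start. *Gm49317*, which spans Mir100, Mirlet7a-2 and Mir125b-1, had 1 peak over its start that was not CpG-rich, at a ratio of 0.284. *Mir670hg* had 4, of which 1 was CpG-rich. *A730043L09Rik*, *A930003A15Rik*, *Gm20754*, *Gm21814*, *Gm36283*, *Gm37233* and *AC113104.3* (Mir5112) had 1 each, none of them CpG-rich.

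Genes that hold snoRNAs, small RNAs that guide modification of ribosomal RNA, had a peak in 4 of 35 eligible cases (11.4%, interval 3.20% to 26.7%), a share near the 10.8% of all eligible lncRNA genes. Only genes typed as lincRNA or antisense are among the 35, so that *Gas5*, *Snhg1*, *Snhg5* and *Snhg14*, which GENCODE types otherwise, were not counted. *Snhg12*, with 8 starts, had 3 promoter peaks, of which the 1 over the first start (chr4:132308377-132308876) was CpG-rich with a ratio of 0.856. *Snhg6* had 1 CpG-rich peak over a start, centred 54 bp upstream of it (chr1:9943922-9944421).

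Within 100 kb of the starts of the 11 DN markers, 1 lncRNA gene had promoter peaks. *9030622O22Rik*, which lies beside *Foxa2*, a forkhead factor needed for DN development and upkeep, had a CpG-rich peak centred 19 bp downstream of a start that lay 5261 bp from the *Foxa2* start (chr2:148039934-148040433). A second peak, not CpG-rich and with a forkhead match, lay 919 bp downstream of a start 69279 bp from *Foxa2* (chr2:147975016-147975515). No other gene with a lncRNA promoter peak had a start within 100 kb of a start of the 11 DN markers. The eligible lncRNA genes within that distance were not counted, so that no share can be set beside that of all eligible genes. Peaks within 5 kb of a marker start are left out by the rule. *Rmst*, an RNA of the developing midbrain and of neural progenitors, had 2 peaks, a CpG-rich one at 54.6% GC (chr10:92162335-92162834) and one with a CpG ratio of 0.181 over another start (chr10:92164929-92165428). More widely, the nearest protein_coding gene was a developmental transcription factor, by a list of symbol families, for 17 of 626 lncRNA genes with a peak (2.72%, interval 1.59% to 4.31%) and for 236 of 5170 without (4.56%, interval 4.01% to 5.17%).

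In a list of known lncRNAs that was chosen with earlier results of these data in view, 18 of 44 eligible genes had a lncRNA promoter peak (40.9%), beside 10.8% of all eligible lncRNA genes and 21.7% of those with a descriptive name. Of 19 eligible *Platr* genes, named for their expression in pluripotent cells, 1 had a peak (*Platr19*, over its start), and of the other 25 genes 17 did (68.0%, interval 46.5% to 85.1%). Because of that choice these shares are a description of the list and support nothing about known lncRNAs in general. Of the 19 *Platr* genes 1 had a CpG-rich start. Those of the 25 without a peak were *H19*, *Hotair*, *Pantr1*, *Dlx6os1*, *2900097C17Rik* (the mouse *Norad*), *Mir155hg*, *Dnm3os* and *Gm26917*. *Hotair* acts in posterior tissues, *Dlx6os1* in forebrain interneurons and *Mir155hg* in immune cells, whereas *Norad* is expressed widely. *Pantr1* had 2 peaks near starts that are within 5 kb of a protein_coding start, which the rule leaves out.

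The promoter peaks farthest from any protein_coding start lay at *C130073E24Rik* on chromosome 8. Its 2 peaks lay 2073 and 2074 kb from the start of *Tenm3*, and one of them had a GC content of 60.8% and the other of 40.0%. *A230006K03Rik* had a peak over its start 1035 kb from *Ndn*, with a GC content of 39.8% and no other peak within 50 kb. The longest genes with such peaks were *Gm20754* (529 kb), *Gm31135* (440 kb) and *D5Ertd615e* (415 kb), and each had 1 peak over a start, none of them CpG-rich.

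Per chromosome, lncRNA promoter peaks made up between 0.781% of peaks on chromosome 11 and 2.62% on chromosome 12, where *Meg3* and *Mirg* lie. The share of eligible genes with a peak ran from 7.69% on chromosome 13 to 16.1% on chromosome 17, with a median of 10.9%. Just inside the 1 kb limit were peaks at *Gm44448* (999 bp) and *0610025J13Rik* (990 bp), and just outside it at *C530044C16Rik* (1001 bp) and *4833427F10Rik* (1004 bp). Just inside the limit for protein_coding starts were peaks at *Gm5922* (5006 bp) and *Gm16170* (5010 bp), and just outside it at *Gm10143* (4955 bp) and *Gm13782* (4936 bp).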

How the data were processed

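Single-nucleus ATAC-seq was made from the VTA of male mice in 2 libraries. Reads were mapped by the authors to mm10 (Cell Ranger), and nuclei were clustered with ArchR after removal of doublets. They chose the DN cluster and merged reproducible peaks of pseudobulk replicates into the deposited list of positions, whose values are other than counts: chromosome, start and end. The methods also describe a minimum share of nuclei per peak, without saying whether this list was filtered by it. The list rests on the nuclei of the DN cluster alone and holds no depth per peak or library. The effect of the number of nuclei and of depth on a missing peak was therefore not measured.

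Starts were read as counted from 0 and are printed counted from 1. Genes came from the comprehensive GENCODE M21 annotation, sequence from GRCm38, and mature miRNAs and further protein-coding starts from RefSeq (GRCm38.p6). Observed to expected CpG was the number of CpG times the length over the product of C and G counts. Repeats were the soft-masked bases. Genes are named by a rule: a list of known lncRNAs, genes that hold a miRNA, the 5 with most peaks, those within 100 kb of a DN marker, the 3 peaks farthest from protein_coding starts, the 3 longest genes, peaks at the limits and 2 examples each for 2 motifs. The members and lists were chosen with earlier results of these data known.

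Shares have 95% Clopper-Pearson intervals, and no test was run. The selection was tested on simulated data. Alternatives were other distance limits, transcript types, annotations, coordinates and a random 50% of peaks. Scripts ran in Python 3.11.15, with scipy 1.17.1 for intervals, pandas 2.3.3 and numpy 2.4.6 for tables, and matplotlib 3.10.9 for plots.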

Additional observations from a re-analysis of the deposited data

Results flagged for a closer look

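On the X chromosome, which the selection leaves out, 16 of 756 peaks met the same distance rule (2.12%, interval 1.21% to 3.41%), and 9 of 113 eligible lncRNA genes had a peak (7.96%, interval 3.71% to 14.6%). On the autosomes these shares were 1.42% and 10.8%, both inside the X chromosome intervals. The X chromosome values are given because no comparison used them. The 9 genes include *Jpx* and *Ftx*, RNAs of the X-inactivation centre.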

How the results depend on the processing

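The number of peaks, 777, lay between 559 and 1114 under every other distance limit, transcript type, annotation and coordinate reading tried, and the 3 shares (genes with a peak, CpG-rich peaks, peaks covering a start) stayed inside their 95% intervals wherever they were computed, except as follows. None of these shares was computed for peaks chosen by overlap with the windows, nor the share of genes for RefSeq starts. The median GC content ran from 51.8% to 52.8%. With centres within 500 bp, 8.76% of eligible genes had a peak, 22% of peaks were CpG-rich and 72.1% covered a start. With centres within 2 kb, these were 14%, 15.6% and 36.2%. With a random 50% of the peaks, 394 peaks met the rule and 5.94% of genes had one. Counting only starts more than 20 kb from protein_coding starts gave 9.80% of genes. With a GC content of at least 55% and a CpG ratio of at least 0.65, 14.7% of peaks were CpG-rich. The basic annotation and the RefSeq starts were added after seeing the data. No paired analysis was possible because both libraries are pooled in 1 list.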
